A study of Drosophila melanogaster with 4 samples.

Results

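Su(var)3-7, a heterochromatin protein of Drosophila with zinc fingers, binds the heterochromatin protein HP1 and modifies position-effect variegation according to its dose. Chromosome 4 is the smallest chromosome of the fly, and its banded part is unusual in that active genes and repeats lie side by side in chromatin rich in HP1 and in methylated lysine 9 of histone H3. The methylation there depends largely on the methyltransferase Eggless, and the chromosome also has a binding protein of its own, POF. The data described here are the 205 enriched regions that the authors' combined list places on chromosome 4, out of 9474 enriched regions on all sequences. They were chosen by sequence name alone, as every row of chromosome 4 not marked as depleted. None of the 3 depleted regions of the combined list lies on chromosome 4.

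The chromatin came from nuclei of sieved heads of Oregon-R wild-type flies at the stage given as mixed adult, raised in population cages and fixed with formaldehyde. It was precipitated with the antibody Q3448 against Su(var)3-7 and sequenced in 2 ChIP libraries, each set against the input library of its own number, so the series holds 4 libraries of 1 strain and no treatment. Heads of many flies are pooled in each library and hold many cell types, so binding in few cells and weak binding in many cannot be told apart. Separate cages or collections for the replicates are not mentioned in the sources used here, and their spread may therefore be technical. The lists hold no expression values, so the tissue could not be checked against marker genes, and no read counts, so depth is unknown. Replicate 1 placed 153 of its 6780 regions on chromosome 4 and replicate 2 placed 145 of its 6658. Positions are of FlyBase release 5, in which chromosome 4 is 1351857 bp long and its first base is at the centromere end. Genes inside the regions are not named, because the gene table used here is of another release.

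Enriched regions lay along the whole of chromosome 4, and the longest stretch free of them in all 3 lists was 25.4 kb. The first region of the combined list began at base 6 and the last ended 2768 bp before the end of the sequence. Covered bases, meaning bases inside a region, came to 585 kb in replicate 1 and 619 kb in replicate 2, or 43.3% and 45.8% of the chromosome. The combined list covered 828 kb, or 61.2%. Both replicates covered the same 36.6% of the chromosome, at least 1 of them covered 52.5%, and none of the 3 lists covered 38.1%. The bases shared by both replicates were 84.6% of those in replicate 1 and 80.0% of those in replicate 2.

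**Figure D1:**
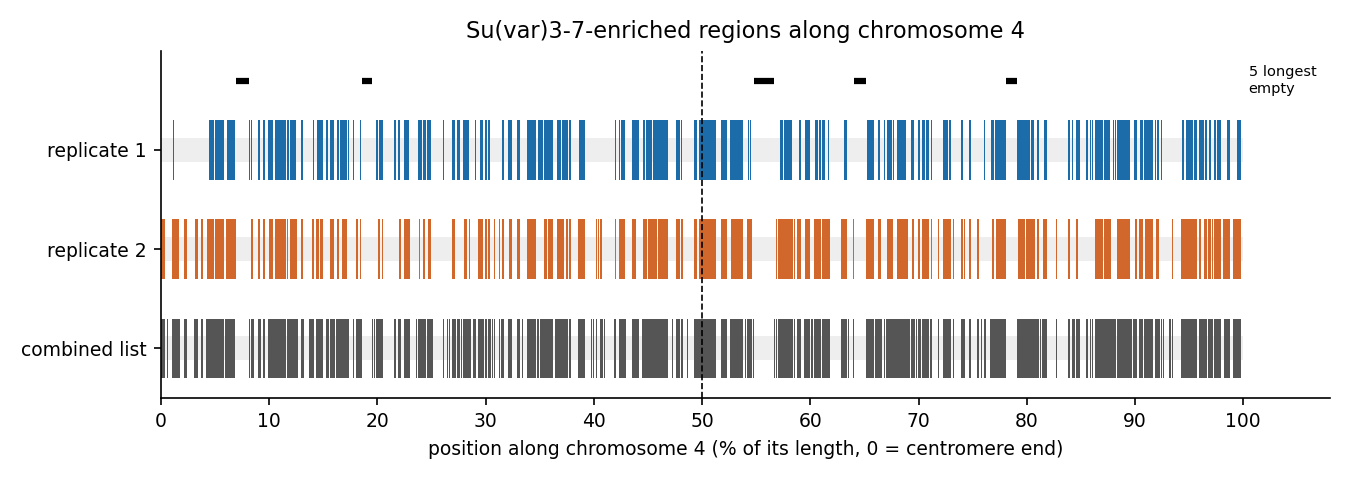
Regions of replicate 1, replicate 2 and the combined list as blocks along chromosome 4, with position as a percentage of the chromosome's length from the centromere end. The dashed line marks the middle and the black bars the 5 longest stretches without a region in any list; replicate 1 has 1 block in the first 50 kb, where replicate 2 has 5.

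The individual regions were mostly a few kilobases long. In the combined list the shortest was 1001 bp, the median 2453 bp and the longest 22.4 kb, with the middle 50% between 1501 and 4746 bp. Replicate 1 had a median of 2618 bp and replicate 2 one of 2896 bp, and the longest region was 17.4 kb and 17.5 kb. A small number of long regions held much of the covered length. In the combined list 19 of the 205 regions were at least 10 kb long, where 2.82% of all combined regions were, and they held 31.3% of the covered length on chromosome 4. The replicates had 10 and 12 such regions, which held 21.9% and 26.0%.

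Between the regions the gaps were short. Neighbouring regions of the combined list were 1131 bp apart at the median, and 61 of 202 gaps were under 500 bp. In the replicates the median gap was 2398 bp and 3059 bp, and 20 of 152 gaps in replicate 1 and 22 of 143 in replicate 2 were at least 10 kb long. On the main arms (X, 2L, 2R, 3L and 3R) the replicates had median gaps of 6375 bp and 6144 bp. The mean gap on chromosome 4 was 4927 bp and 5098 bp, against 17075 bp and 17849 bp on the main arms, a ratio of 0.287 ± 0.00207 (SD, n = 2). Mean length differed less, with 3826 bp and 4272 bp on chromosome 4 and 2817 bp and 2943 bp on the main arms, a ratio of 1.41 ± 0.0659 (SD, n = 2). With 2 replicates, the smallest p that an exact two-sided permutation of signs allows is 0.5, so values are given with their spread and no test.

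**Figure D2:**
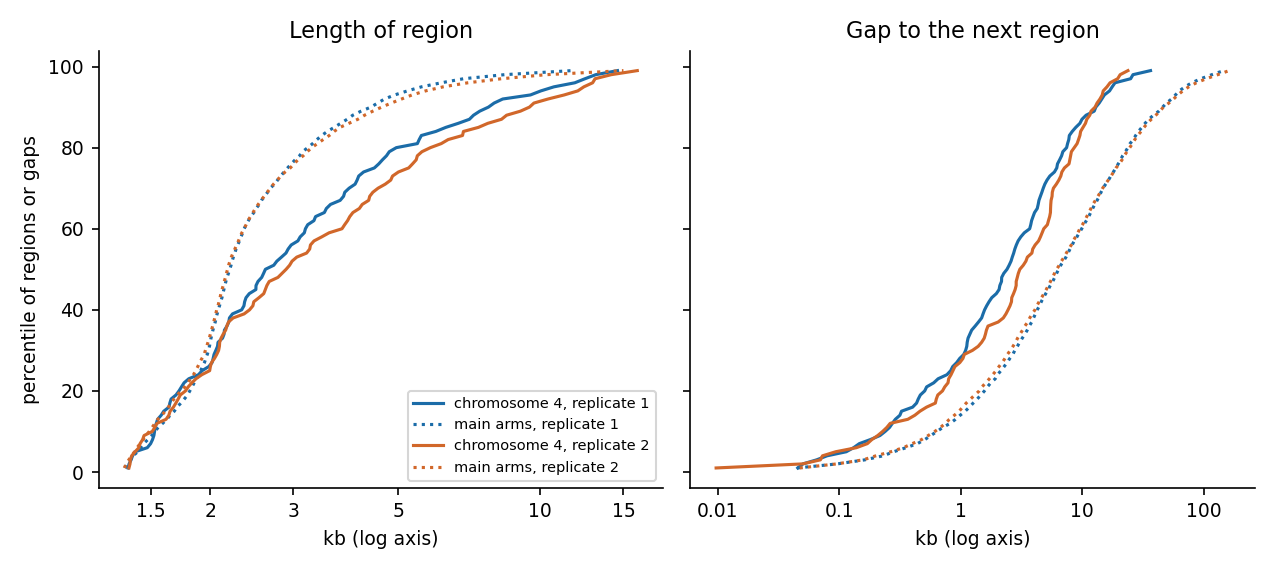
Percentiles of region length (left) and of the gap to the next region (right) in kb on log axes, for chromosome 4 (solid) and the main arms (dotted) in each replicate. The shortest lengths coincide and the curves part above about 2 kb, while the gaps of chromosome 4 lie to the left of those of the main arms over nearly the whole range, with medians of 2398 and 3059 bp against 6375 and 6144 bp.

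The chromosome was then cut at its middle into a proximal part (bases 1 to 675928) and a distal part (675929 to 1351857). The distal part was covered somewhat more in both replicates. In replicate 1 the covered share was 41.1% in the proximal and 45.5% in the distal part, and in replicate 2 it was 41.8% and 49.8%. Distal minus proximal came to 4.41 and 8.00 percentage points, a mean of 6.21 ± 2.54 (SD, n = 2), and to 2.57 points in the combined list. The sign was the same in both replicates, but 2 replicates allow no test that could pass 0.05. The SD is the spread between 2 libraries and does not measure how coverage varies along the chromosome. Mean coverage of 50 kb windows ran from 18.5% to 67.5%, a far wider range than the distal minus proximal difference. Without the first and last 100 kb that difference was 3.03 points in replicate 1 and 9.39 in replicate 2, a mean of 6.21 ± 4.50 (SD, n = 2).

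Region lengths in the proximal and distal parts were then compared, and the replicates gave different pictures above the median. Mean length was 3752 bp in the proximal and 3895 bp in the distal part in replicate 1, and 3934 and 4597 bp in replicate 2. Median length was 2356 bp in the proximal and 2828 bp in the distal part in replicate 1, and 2611 and 3214 bp in replicate 2. In replicate 1 the upper quartile was lower in the distal part (4045 against 4673 bp), and regions of at least 5 kb numbered 16 proximal and 15 distal, with 48.3% and 45.6% of the covered length. In replicate 2 both were higher in the distal part, with upper quartiles of 4738 bp proximal and 5473 bp distal, and 15 and 23 such regions with 47.6% and 62.2%. Of the covered length, regions of 10 kb or more made up 17.1% in the proximal and 26.1% in the distal part in replicate 1, and 21.0% and 30.1% in replicate 2. By number, replicate 1 had 73 proximal and 80 distal regions and replicate 2 had 71 and 74. The combined list had the opposite order, with 111 proximal and 94 distal regions. Regions shorter than any in a replicate list (under 1301 bp) made up 22 of the proximal and 11 of the distal regions, and 15.6% of the whole combined list; without them the numbers were 89 and 83. Joining neighbours under 500 bp apart left 61 proximal and 62 distal regions in replicate 1, and 62 and 60 in replicate 2.

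Within each part the coverage rose and fell over short distances. In windows of 50 kb the share ran from 4.28 to 70.9% in replicate 1 and from 11.7 to 70.2% in replicate 2. The window from 600001 to 650000, just before the middle, had the highest mean, with 68.0% covered in replicate 1 and 67.1% in replicate 2. It was followed by 1200001 to 1250000 with 70.9% and 62.3%, and by 50001 to 100000 with 57.3% and 70.2%. At the low end, 250001 to 300000 had 25.2% and 11.7%, and 1100001 to 1150000 had 27.3% and 22.0%. These were the only 2 of the 27 windows under 30% in both replicates, whereas 23 were at least 30% covered in both and 7 at least 50%. Spearman's rho between the replicates over the 27 windows was 0.65, and over 14 windows of 100 kb it was 0.38, or 0.60 without the first of these. The last of the 14 was shorter, from 1300001 to 1351857, and counted like the others. The values are a description, since neighbouring windows share regions and both libraries were called in the same way.

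**Figure D3:**
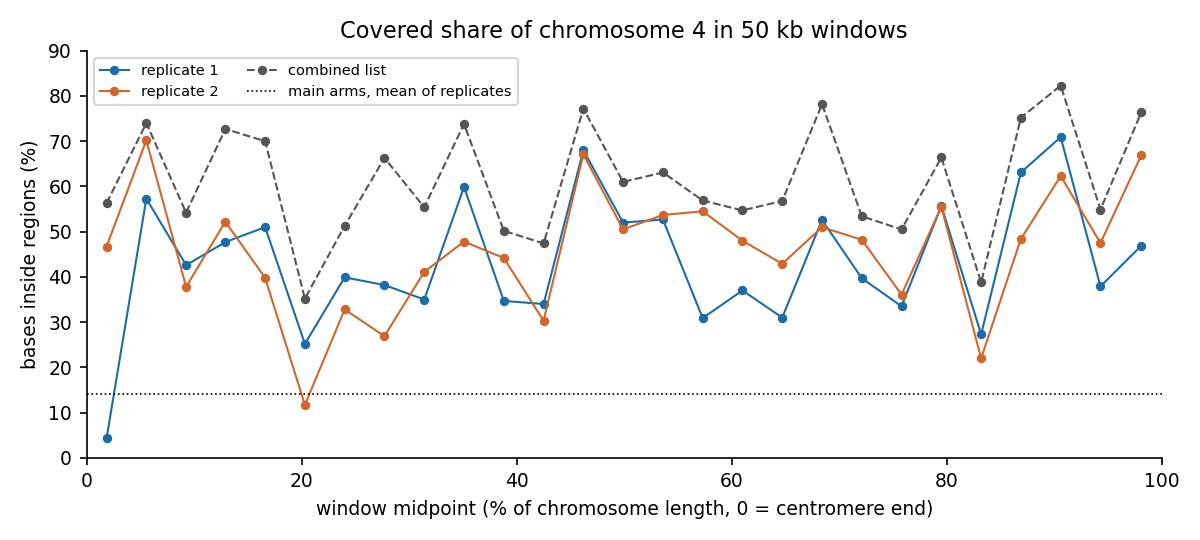
Covered share (%) of chromosome 4 in 27 windows of 50 kb by window midpoint, as a percentage of chromosome length from the centromere end, for each replicate and the combined list; the dotted line is the main-arm mean of 14.2%. The mean of the replicates is highest just before the middle (68.0% and 67.1%); both are low at 250001 to 300000 and at 1100001 to 1150000, and they part in the first window (4.28% and 46.7%).

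The replicates differed most in the first window. Over the first 50 kb, replicate 1 had 1 region, from 14430 to 16569, and covered 4.28%. Replicate 2 had 5 regions there and covered 46.7%, among them 3 to 5053 with a score of 1.41 and 13144 to 22833 with 1.03. Replicate 1 had no region from 16570 to 59529, a gap of 43.0 kb and its longest on the chromosome. Farther in, from 50001 on, both replicates had long regions: replicate 1 listed 59530 to 66766 and 67004 to 79038. The last window, from 1300001 to the end, was covered at 46.9% in replicate 1 and 66.9% in replicate 2. Inside the chromosome, the window from 750001 to 800000 differed somewhat more than the last one, with 30.9% and 54.5%. These were the 3 windows with the replicates over 15 points apart. No cause of these differences was tested.

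Some stretches of chromosome 4 had no region in any of the 3 lists. There were 11 such stretches of at least 10 kb, 5 in the proximal and 6 in the distal part. Without the combined list the order was the other way, with 10 proximal and 7 distal stretches of that length covered in no replicate. Gaps of at least 10 kb numbered 11 proximal and 9 distal in replicate 1, and 13 and 9 in replicate 2. Those of at least 20000 bp numbered 2 proximal and 4 distal in replicate 1, and 2 and 2 in replicate 2. The longest stretch without a region in any list ran from 740328 to 765741 (25.4 kb), shortly after the middle. Around it replicate 1 had no region from 737489 to 773501 (36.0 kb) and replicate 2 none from 737829 to 767937 (30.1 kb). Replicate 1 also had none from 529915 to 566720 (36.8 kb), where replicate 2 had 4 regions. Next came 93165 to 109493 (16.3 kb), which followed the densely covered window near the centromere end. The other 3 of the 5 longest were 866268 to 880243 (13976 bp), 1055513 to 1069478 (13966 bp) and 250490 to 263988 (13.5 kb). Another pair, 1106570 to 1118162 (11.6 kb) and 1119529 to 1132686 (13.2 kb), lay close together in the low window of the distal part. Since depth is unknown, such a stretch may be unbound or may hold too few mapped reads, and these cannot be told apart.

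The opposite case, a long run covered without a break in both replicates, was met 8 times at 10 kb or more, 3 times in the proximal and 5 times in the distal part. The longest such run, from 672559 to 689335 (16.8 kb), lay across the middle of the chromosome. It was followed by 712056 to 726795 (14.7 kb), 1195806 to 1208747 (12.9 kb), 1042625 to 1055412 (12.8 kb) and 620348 to 632795 (12.4 kb). The run that ended at 1055412 stood directly before the empty stretch that began at 1055513.

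Replicate overlap was then read for each region of the combined list, counting any overlap of at least 1 bp. Of the 205 regions, 104 (50.7%, exact 95% interval 43.7 to 57.8%) met a region of both replicates, where 53.2% of the whole combined list did. A further 27 (13.2%) met replicate 1 alone, 23 (11.2%) met replicate 2 alone, and 51 (24.9%) met neither. Over the whole list these shares were 10.9%, 11.5% and 24.4%. These shares were close to the background of the list, and the combined list was made from the same libraries, so they are no independent check. Those 104 regions made up 79.1% of the length of all 205, against 74.3% over the whole list. Their median length was 4729 bp, against 2907 bp for all combined regions found in both. The 51 found in neither had a median length of 1282 bp, and 28 of them (54.9%) were shorter than any replicate region. The whole list was alike, with a median of 1256 bp for regions found in neither and 54.9% of these shorter than any replicate region.

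Length and overlap went together. None of the 50 regions of at least 5 kb failed to meet both replicates (31 of 5 to 10 kb and 19 of 10 kb or more), where 97.3% and 100% of all combined regions of these lengths did. From 2 to 5 kb it was 50 of 72, or 69.4% (57.5 to 79.8%), against 81.3% over the whole list. Under 2 kb it was 4 of 83, or 4.82% (1.33 to 11.9%), against 8.91%. Distal regions met both replicates in 51 of 94 cases and proximal ones in 53 of 111, shares of 54.3% (43.7 to 64.6%) and 47.7% (38.2 to 57.4%) with overlapping intervals. The intervals cover counting error only, and regions are not independent replicates.

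Set directly against each other, the replicates shared 124 of the 153 regions of replicate 1 (81.0%, 73.9 to 86.9%) and 117 of the 145 of replicate 2 (80.7%, 73.3 to 86.8%). Over the whole lists the shares were 83.3% and 81.2%. Regions without a partner were short, with medians of 1644 and 1692 bp against 3172 and 3463 bp for those with one. Over the whole lists these medians were 1704 and 1664 bp without a partner and 2320 and 2329 bp with one. On chromosome 4 the longest in replicate 1 without a partner had 2501 bp. In replicate 2 it was the region of 5051 bp at the first bases of the sequence. By position, 78.1% of proximal and 83.8% of distal regions of replicate 1 were shared, and 80.3% and 81.1% of those of replicate 2.

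Each region carries a score that the authors gave it. Its scale was read from the values to be log2, so that a difference of 1 is a factor of 2; it was used to rank regions within a list. Over the 205 regions the scores ran from 0.121 to 2.75 with a median of 0.397, and the median of the whole combined list was 0.481. A score of at least 1 was reached by 22 of them (10.7%), 9 proximal and 13 distal, against 13.6% of the whole list. The regions of chromosome 4 were thus dense but not high in score. In the replicates chromosome 4 had median scores of 0.581 and 0.661, against 0.657 and 0.626 for the main arms, with opposite order in replicates 1 and 2. Distal regions had the higher median score in both replicates, with 0.623 against 0.562 in replicate 1 and 0.715 against 0.597 in replicate 2. Longer regions had higher scores, with Spearman's rho of 0.75 over 153 regions in replicate 1 and 0.81 over 145 in replicate 2, a description across regions of 1 library.

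**Figure D4:**
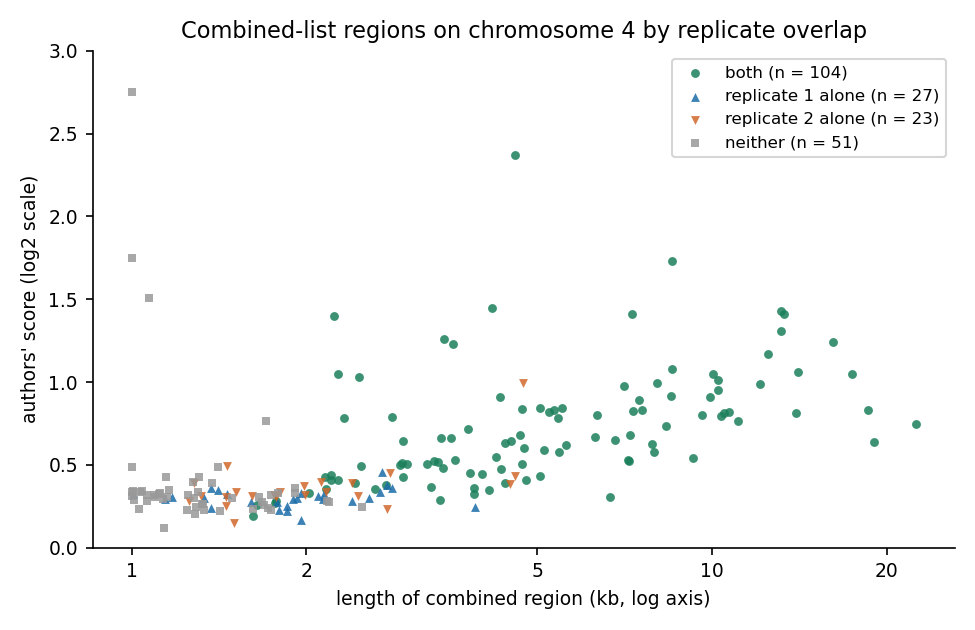
Length (kb, log axis) and authors' score (log2 scale) of the 205 combined-list regions on chromosome 4, by which replicates they overlap. Regions of 5 kb and more all met both replicates. The 51 found in neither mostly gather at short lengths and low scores. Of these, 2 regions of 1001 bp stand at 2.75 and 1.75, and a region of 1070 bp at 1.51.

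Among the regions found in both replicates, the highest score belonged to 433684 to 438261, a region of 4.58 kb in the proximal part. It scored 2.37 in the combined list, 2.45 in replicate 1 and 2.56 in replicate 2. A close neighbour, 444384 to 448562 (4.18 kb), had 1.45, and scored 1.53 and 1.37 in the replicates. Between them came 1315381 to 1323930 (8.55 kb, score 1.73) near the distal end, which each replicate split into 2 regions. The left one, from 1315461 to 1317884 in replicate 1 and from 1315406 to 1317815 in replicate 2, scored 2.51 and 2.56. It had the highest score on chromosome 4 in each replicate, in replicate 2 level with 434350 to 438241 at the digits given. The other 7 of the 10 ran from 1.43 down to 1.24. Of these, 1195667 to 1208818, 619788 to 633107, 1042336 to 1055512 and 710999 to 727150 were over 13 kb long, and 506224 to 508454 (2.23 kb) was the shortest. Of the 10, 4 were proximal and 6 distal, and each of the 10 was covered to at least 80.1% by both replicates.

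The 10 longest regions, of which 4 are also among the 10 with the highest scores, scored from 0.640 to 1.43, where the median of all 205 was 0.397. The longest, 1069740 to 1092175 (22.4 kb, score 0.747), met 4 regions of replicate 1 and 5 of replicate 2, which covered 92.0% and 91.8% of it. Next were 770936 to 789992 (19.1 kb, score 0.640), which replicate 1 covered in 4 pieces to 66.2% and replicate 2 in 2 pieces to 99.7%, and 601021 to 619582 (18.6 kb, score 0.832), met by 3 regions in each. By contrast, 672017 to 689433 (17.4 kb, score 1.05) and 710999 to 727150 (16.2 kb, score 1.24) were single regions in both replicates. Of the 19 regions of at least 10 kb, 11 were single in both replicates and 8 were split in at least 1. In 1279803 to 1293736 (13.9 kb) the lists parted: replicate 2 had 1 region with a score of 0.876, while replicate 1 had 4, of which 1289807 to 1293662 scored 2.20.

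Toward the distal end the regions had high scores. Of the 7 combined regions with their middle in the last 50 kb, 5 scored at least 1, where 13.6% of the whole combined list did. Among the 5 was 1311638 to 1312707 (1070 bp, score 1.51), which met neither replicate. The last, 1339065 to 1349089 (10.0 kb, score 1.05), was covered to 46.2% by replicate 1 and to 94.6% by replicate 2. At the centromere end the first, 6 to 4729 (4.72 kb, score 0.995), was met by replicate 2 alone. High scores also stood there: 5722 to 6722 had 2.75 and 7957 to 8957 had 1.75, but both met neither replicate.

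Chromosome 4 was last set beside the proximal 1 Mb of 2L, 3L and 3R and the scaffolds 3LHet and 3RHet, using the covered share in each replicate. Relative to the main arms, chromosome 4 stood at 2.24 ± 0.0144 by regions per Mb (SD, n = 2) and 3.15 ± 0.127 by covered share. The proximal 1 Mb of 2L was covered more than chromosome 4, with 49.5% and 58.4%. Chromosome 4 minus it was -6.23 and -12.6 points. This order depended on the length taken. The proximal 1.35 Mb of 2L, as long as chromosome 4, had 38.7% and 45.4%, below chromosome 4 in both replicates. The proximal 1 Mb of 3L did not keep one side of chromosome 4: it stood 9.26 points below chromosome 4 in replicate 1 and 1.62 points above it in replicate 2. The proximal 1 Mb of 3R had 21.0% and 27.1%, 3LHet had 29.6% and 40.7%, and 3RHet had 10.7% and 15.9%, each below chromosome 4 in both replicates. Replicate 2 had the higher share on each of these 5 sequences. Covered share and regions per Mb were taken over the full sequence length, so sequence without mapped reads counted as uncovered. On 3RHet the median gap was 2366 and 5320 bp but the mean gap 43091 and 28842 bp. Whether its long empty stretches can be mapped was not tested.

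Number and length of regions were then compared, although proximal 3R, 3RHet and the main arms had much lower coverage than chromosome 4. Chromosome 4 had 113 and 107 regions per Mb, more than the proximal 1 Mb of 2L (89 and 79) and of 3L (76 and 97) and of 3R (60 and 70), and than 3LHet (72.4 and 75.1) and 3RHet (20.7 and 29.0). Its covered length lay to 21.9% and 26.0% in regions of 10 kb or more, but these held 50.3% and 66.2% on proximal 2L, 37.2% and 45.5% on proximal 3L, 5.71% and 15.1% on proximal 3R, 43.9% and 60.9% on 3RHet, and 33.9% and 49.0% on 3LHet. Its longest replicate regions, of 17.4 and 17.5 kb, were shorter than those of proximal 2L (24.2 and 30.6 kb), proximal 3L (24.1 and 24.3 kb) 3LHet (29.1 and 27.6 kb) and 3RHet (23.9 and 25.9 kb), and longer than those of proximal 3R (12.0 and 15.0 kb). Outside the 2 Mb next to the centromeres, the main arms had 48.9 and 46.3 regions per Mb, and long regions held 1.81% and 3.45% of their covered length. Chromosome 4 thus had more regions per Mb than any of these sequences in both replicates, with a smaller share in long regions than proximal 2L, proximal 3L, 3LHet and 3RHet and a larger one than proximal 3R and the main arms. When each main arm was cut from its centromere end into stretches as long as chromosome 4, 86 in all, 1 was covered more than chromosome 4 in replicate 1 and 2 were in replicate 2. The stretch above it in both was the first of 2R, with 76.8% and 82.5%. Proximal 2R was not among the sequences compared singly above by regions per Mb and by long regions. The first stretch of 2L had 38.7% and 45.4%, below chromosome 4 in both replicates, and that of 3L had 35.8% and 49.2%. The median stretch had 12.3% and 11.7%.

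**Figure D5:**
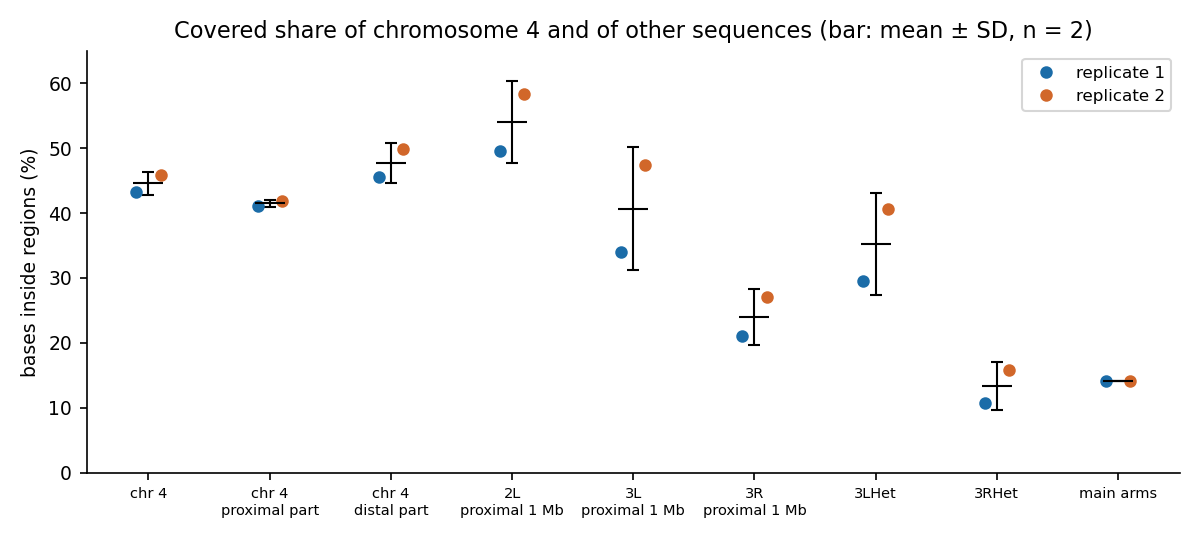
Covered share (%) of chromosome 4, its proximal and distal parts, the proximal 1 Mb of 2L, 3L and 3R, the scaffolds 3LHet and 3RHet, and the main arms; points are replicates and bars the mean ± SD (n = 2). Both chromosome 4 points (43.3% and 45.8%) lie below those of proximal 2L, between those of proximal 3L, and above those of proximal 3R, 3LHet, 3RHet and the main arms.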

How the data were processed

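The deposited files were 3 lists of enriched regions, 1 for each ChIP replicate and 1 that combines them, in FlyBase release 5 coordinates per the file headers. Reads had been aligned with Bowtie 0.12.7, per the submitters' processing notes. The sources used here give neither the region caller and its threshold, nor how multiply mapping reads were handled, nor how the replicates were combined. All of these bear on how much repetitive sequence can be called, and chromosome 4 is rich in repeats.

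The deposited score of a region is on a log2 scale. This was read from the values: after the commonest score of the combined list (0.430) was taken away, 1312 of the other 9439 scores lay within 1e-09 of log2 of a ratio of whole numbers up to 100, but 0 for natural log and 12 for log10. The sources used here do not say what the ratio averages.

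From the files, covered bases, lengths, gaps and overlaps were computed with Python 3.11.15, pandas 2.3.3 and scipy 1.17.1. Across the lists, 4 regions that ran past a sequence end were trimmed. Depth per sample is unknown. Regions were counted in the part that held their middle. Named regions were the 10 with the highest score found in both replicates, the 10 longest, the first, the last and the 5 longest empty stretches. Interval arithmetic was checked base by base on 40 simulated sets, with 0 mismatches. Regions, lists and comparisons were chosen with earlier results of these data known. Alternatives were joined neighbours, score and length limits, other cuts of the chromosome, stricter overlap and left-out replicates.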

Additional observations from a re-analysis of the deposited data

How the results depend on the processing

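No paired analysis was possible because neither input library has a list of regions, which leaves 1 group. Of 49 values under other settings, 28 stayed within the spread between replicates or the exact interval, but 19 of these had to by construction. Leaving out a replicate gave 4.41 to 8.00 points for distal minus proximal coverage. The 50% of regions with the higher scores in each list covered 31.9% of chromosome 4, with a ratio to the main arms of 3.62, a median length of 4843 bp and a median gap of 8446 bp; 66.3% of combined regions were then found in both replicates, and the replicates shared 84.7%. Joining neighbours gave medians of 3468 and 4077 bp, a shared part of 82.5%, and distal minus proximal regions per 100 kb of -0.0740 in place of 0.740. The combined list in place of the replicates, chosen after seeing the data, turned that value to -2.52; it covered 61.2%, with a distal excess of 2.57 points and medians of 2453 bp for length and 1131 bp for gaps. With the sequence cut into 3 equal pieces, the last minus the first was 9.40 points. The ratio to the main arms was 2.24 by regions per Mb, 3.63 without the 2 Mb next to the centromeres and 3.72 against the median main-arm stretch, the last chosen after seeing the data. Leaving out regions under 1301 bp put 60.5% in both replicates, and requiring 50% of a region to be covered left 77.5% shared. Over the whole lists that requirement left 80.6% of replicate 1 and 77.6% of replicate 2 shared. The other shares under changed settings have no whole-list value beside them here, so they do not set chromosome 4 apart. Causes were not tested, and depth is unknown.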

Other observations

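The region with the highest score of all 205 on chromosome 4 was not one of those found in both replicates. It ran from 5722 to 6722, was 1001 bp long, the shortest length in the combined list, and had a score of 2.75. The next such region, from 7957 to 8957, was also 1001 bp long and had 1.75, exactly 1 below it as printed. Another, 1311638 to 1312707 (1070 bp, score 1.51), lay near the other end of the chromosome. None of the 3 met a region of either replicate. They were chosen after their values were seen.

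Some neighbouring regions of the combined list stood almost end to end. Of the 204 pairs of neighbours, 20 were under 100 bp apart, among them 2 that touched. The pair 1069740 to 1092175 and 1092222 to 1093708, for example, was separated by 46 bp. Joined where under 500 bp apart, the 205 regions became 142, while those of replicate 1 went from 153 to 123 and those of replicate 2 from 145 to 122. These counts have no whole-list value beside them here, so they do not set chromosome 4 apart.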
